A study of Homo sapiens with 4 samples.

Results

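H6PD held 45 of the 18789 N6-methyladenosine (m6A) sites listed for C643 cells, or 0.240% of the list. The sites were selected by position, as every listed site on the plus strand of chromosome 1 within the GENCODE interval of H6PD (GRCh38 chr1:9234774-9271337), and the gene itself was chosen by its high number of sites. Its counts and scores are therefore given as a description, and its ranks among other genes are no test. The list came from miCLIP2, which fixes an anti-m6A antibody to fragments of polyadenylated RNA with ultraviolet light and reads the modified nucleotide from cDNA truncation events beside it. C643 is an established cell line from an anaplastic thyroid carcinoma, and the single group consisted of untreated wild-type (WT) cells in 3 biological replicates and 4 libraries, as replicate 1 had 2 technical libraries. The machine learning model m6Aboost decided which peaks at an adenosine were called modified, with a prediction score between 0.50 and 1 for every listed site. The authors pooled the replicates before listing, which leaves no measure of the spread between replicates, and the depth behind each site is unknown.

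H6PD encodes hexose-6-phosphate dehydrogenase, an enzyme of the endoplasmic reticulum lumen that oxidises glucose 6-phosphate and produces NADPH there. That NADPH is used by HSD11B1, the reductase that regenerates cortisol from cortisone. In messenger RNA most m6A is placed by the METTL3 methyltransferase complex at the DRACH motif, in which D is A, G or T, R is A or G, and H is A, C or T. It is typically sparse close to splice junctions, so that long exons, such as last exons, hold much of it.

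The transcript used here was H6PD-201, with 5 exons and 9147 nt. Its 3' UTR of 6468 nt made up 70.7% of the transcript, and exon 5, which holds the end of the coding sequence and the whole 3' UTR, made up 85.6%. All 45 sites lay at an A, and all of them were exonic in this transcript. Exon 5 carried 39 sites (86.7%) and exon 2 carried 6. Exons 1, 3 and 4 carried 0. By region, 31 sites lay in the 3' UTR, 14 in the coding sequence and 0 in the 5' UTR. No other annotated gene overlapped the interval on either strand (0 genes), and 0 sites were listed on the opposite strand.

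The sites with the 3 highest and the 3 lowest scores are shown first, since they span the range over which H6PD sites were called. Each line gives the 21 nt around the site from GRCh38 chromosome 1, plus strand, 5′ to 3′, with T for U, and the capitals mark the pentamer whose central A is the listed site. The first 3 windows are those of the highest scores.
AGACT at chr1:9270783, 3' UTR: gagcagagAGACTgttccctt
GGACT at chr1:9265375, 3' UTR: ggcattggGGACTgtcttgag
GAACT at chr1:9270624, 3' UTR: cggagtggGAACTgtgattcc
TAACT at chr1:9267559, 3' UTR: tcctgttcTAACTcagccctg
GGACC at chr1:9263789, coding: aaatggagGGACCacctgggc
GGAAC at chr1:9269797, 3' UTR: aggcagcaGGAACcctgggca

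The 3 highest scores were 0.981 at 9270783, 0.913 at 9265375 and 0.911 at 9270624. All 3 lay in the 3' UTR and in pentamers that end in CT. The 3 lowest were 0.503 at 9267559, 0.518 at 9263789 and 0.522 at 9269797. Over the 45 sites the median score was 0.765, with quartiles of 0.662 and 0.858, and over the whole list it was 0.754. A score of at least 0.7 was reached by 29 sites.

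**Figure D1:**
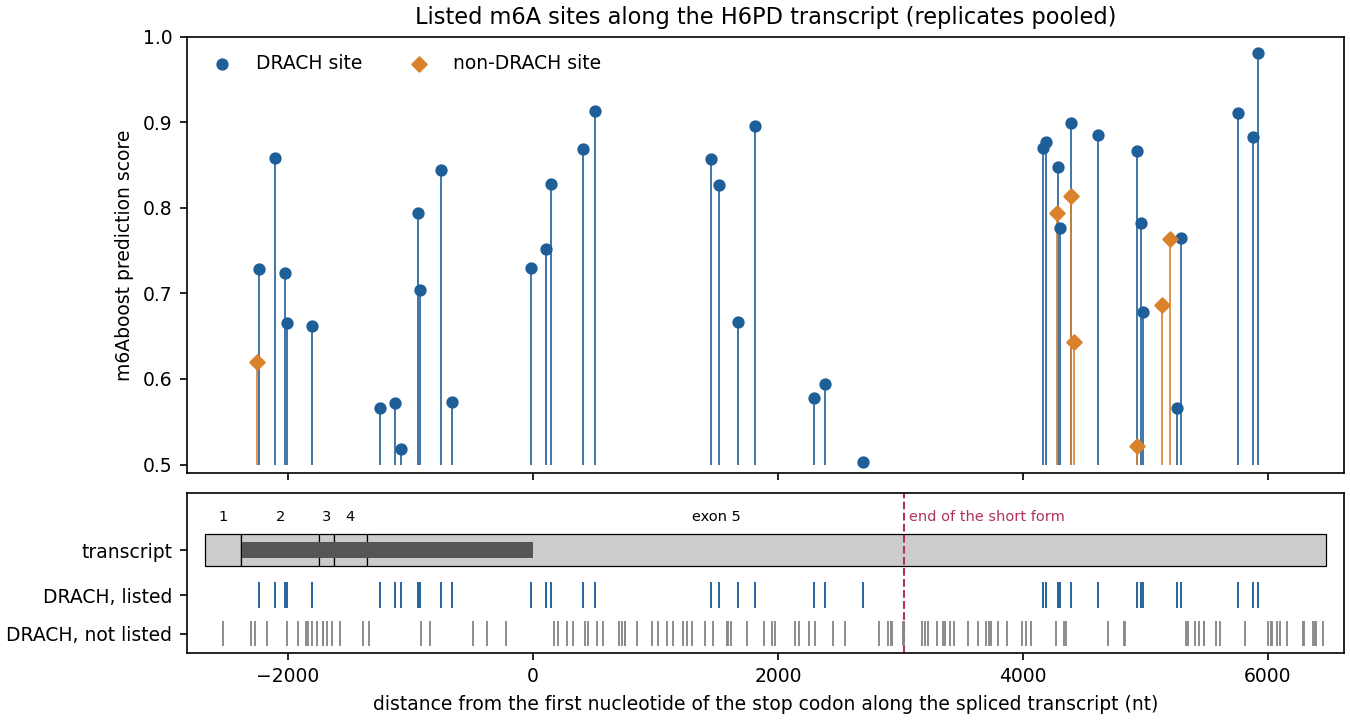
Upper panel, prediction score (y axis) of each of the 45 listed H6PD sites against its distance in nt from the first nucleotide of the stop codon along the spliced transcript (x axis), with circles for DRACH and diamonds for non-DRACH sites. Lower panel, the exons (light bar, coding sequence dark), the end of the annotated short form (dashed line) and the DRACH motifs that were and were not listed, with the 1471-nt gap in the middle of the 3' UTR and the dense group of sites after it.

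Sites were set against all DRACH motifs of the transcript. H6PD-201 held 146 DRACH motifs, of which 38 (26%, 95% Wilson interval 19.6 to 33.7) were listed, whereas 7.29% of the DRACH motifs of all host transcripts were. Host transcripts are the 3699 that carried a listed exonic site, so genes without a site are not among them. The Wilson intervals here cover counting error only. Motifs of a transcript share their RNA, its expression and its reads, so they are not independent samples. A motif that is not listed may have had no peak, a peak in a single replicate, or a peak that the classifier rejected, and these cannot be told apart. The expression of H6PD was not analysed here.

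In the coding sequence 13 of 34 DRACH motifs were listed (38.2%, 23.9 to 55.0), beside 6.29% over the coding motifs of all host transcripts. In the 3' UTR 25 of 111 were listed (22.5%, 15.7 to 31.1), beside 9.05% over the 3' UTR motifs of all host transcripts. In these host transcripts the 3' UTR share exceeded the coding share, while in H6PD the coding share was the higher value, with intervals that overlapped. The part of distance to junctions in this contrast was not tested. In hosts with more than 1 exon, 18.1% of coding motifs over 100 nt from a junction were listed, also above the 9.05% of 3' UTR motifs. At a score of at least 0.7 the coding and 3' UTR shares of H6PD were 20.6% and 17.1%, and for the wider motif RAC they were 23.2% and 20.4%, so the difference was smaller under both. Scores ran the other way. The 14 coding sites had a median score of 0.685 (0.518 to 0.858) and the 31 sites in the 3' UTR one of 0.814 (0.503 to 0.981). The whole list showed the same order, with medians of 0.707 for 7368 coding sites and 0.801 for 9695 sites in 3' UTRs. The transcript region was an input of m6Aboost, and its part in this difference was not tested.

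**Figure D2:**
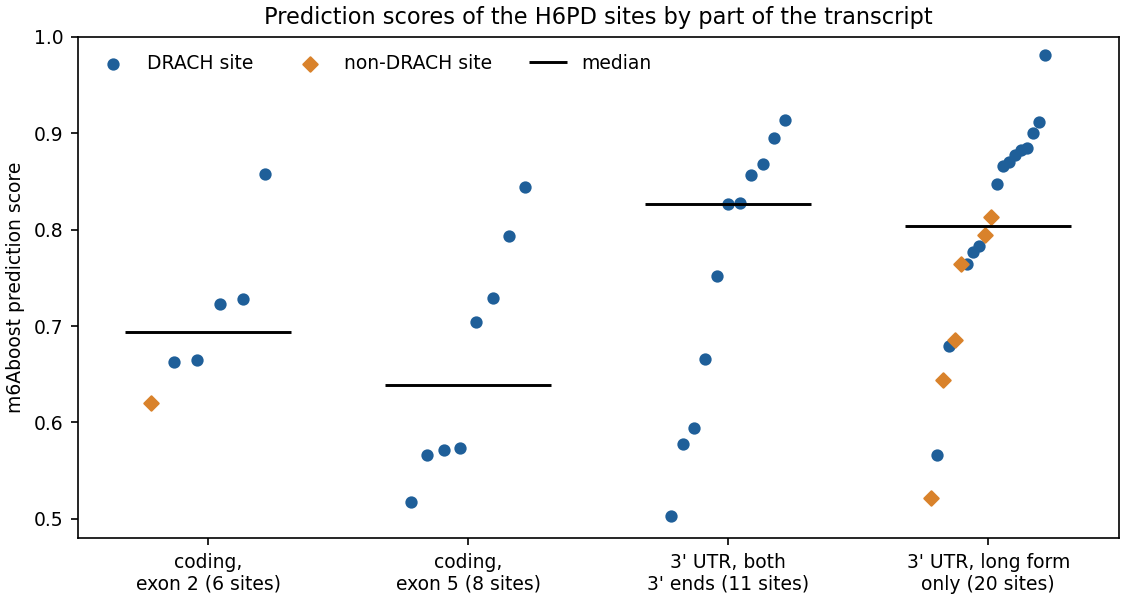
Prediction score (y axis) of each H6PD site in 4 parts of the transcript (x axis), sorted within each part, with a line at the median. The medians were 0.694 and 0.639 in the coding parts of exons 2 and 5, and 0.826 and 0.804 in the parts of the 3' UTR shared by both annotated 3' ends and found in the long form only, with scores that overlapped among all 4 parts.

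Exon 1 (9234774 to 9235066, 293 nt) lies wholly in the 5' UTR. It held 1 DRACH motif, which was not listed. Exon 2 (9244925 to 9245561, 637 nt) holds the start codon and 627 nt of coding sequence. Of its 14 DRACH motifs 5 were listed (35.7%, 16.3 to 61.2), and its sixth site was outside DRACH. The sites scored 0.620 at 9245056, 0.728 at 9245069, 0.858 at 9245200, 0.723 at 9245281, 0.665 at 9245302 and 0.662 at 9245501. A single site of this exon, the GGACA at 9245200, scored above 0.8. Exon 3 (9246966 to 9247083, 118 nt) had 0 of 4 DRACH motifs listed, which allows a share of up to 49.0%, and exon 4 (9262059 to 9262328, 270 nt) had 0 of 2, which allows up to 65.8%. These exons hold too few motifs for an absence of methylation to be read from them.

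The coding part of exon 5 (exon 9263509 to 9271337) covers 1361 nt. It had the highest share of motifs listed of the exon parts, with 8 of 14 (57.1%, 32.6 to 78.6), although it was sparse in motifs, with 10.3 per kb against 17.2 per kb in the 3' UTR. Its sites scored 0.567 at 9263617, 0.572 at 9263743, 0.518 at 9263789, 0.794 at 9263926, 0.704 at 9263944, 0.844 at 9264118, 0.573 at 9264202 and 0.730 at 9264847. The scores fell into 4 sites below 0.6 and 4 above 0.7. The low ones were at GAACC (both 0.567 and 0.572), GGACC and TGACA, and the high ones were all in pentamers ending in CT.

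Within the coding sequence, most listed motifs lay away from splice junctions. Of 12 motifs at most 100 nt from a junction, 1 was listed (8.33%, 1.49 to 35.4), and of the 22 farther away 12 were (54.5%, 34.7 to 73.1). The near site was the GAACT at 9245501, 61 nt from the end of exon 2. In the coding motifs of all host transcripts with more than 1 exon the corresponding shares were 2.43% of 78675 and 18.1% of 23939. The order was thus the same in H6PD and in the hosts. With respect to the reading frame, 11 of the 14 coding sites lay at the middle base of a codon, 3 at the last base and 0 at the opening base. The coding DRACH motifs themselves numbered 24 at the middle base, 5 at the last and 5 at the opening base, and 10, 3 and 0 of these were listed.

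The surroundings of the stop codon were sparse in motifs and carried few of the H6PD sites. Within 200 nt of its first nucleotide there were 4 DRACH motifs, of which 3 were listed (75%, 30.1 to 95.4), whereas 19.3% of the 26917 such motifs of coding host transcripts were. These were 3 of the 45 sites (6.67%, 2.29 to 17.9), at 20 nt before it and 108 and 145 nt after it. Across coding host transcripts 5828 of 17485 exonic sites (33.3%) lay in that window. Per gene, the median share over 455 genes with at least 10 sites was 20% (quartiles 9.09 and 33.3), and 77 of these genes had a lower share than H6PD.

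GENCODE release 44 gives 3 forms of H6PD, which differ in their 3' parts and also upstream. H6PD-203 holds 35 coding DRACH motifs, against 34 in H6PD-201. H6PD-203 ends at 9267898, so that its 3' UTR shares 3029 nt with the long form, and the remaining 3439 nt belong to the long form only. H6PD-202 splices out 9268038 to 9271144 directly after its first exon, so it lacks the upstream junctions of H6PD-201. The shared part of the 3' UTR carried 11 sites and the long-form part 20. As a share of DRACH motifs the parts were close, with 11 of 52 (21.2%, 12.2 to 34.0) and 14 of 59 (23.7%, 14.7 to 36.0), and both held 17.2 motifs per kb. All 20 sites of the long-form part lay inside the intron of H6PD-202 and past the end of H6PD-203, so H6PD-201 is the only one of the 3 annotated forms with these sites in an exon. The other 25 sites were also exonic in H6PD-203. The polyadenylation hexamer AATAAA, searched on the transcript strand, began 21 nt before the end of H6PD-201, at 9271317. Neither AATAAA nor its variant ATTAAA occurred in the last 50 nt of H6PD-203. In the last 50 nt of the 3616 coding host transcripts AATAAA was found in 61.3% and ATTAAA in 17.4%.

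In the shared part the scores were 0.752 at 9264975, 0.828 at 9265012, 0.868 at 9265276, 0.913 at 9265375, 0.857 at 9266323, 0.826 at 9266382, 0.666 at 9266540, 0.895 at 9266684, 0.577 at 9267161, 0.594 at 9267249 and 0.503 at 9267559. The 3 sites nearest the end of the short form were the 3 lowest of the 11, and all of them were below 0.6. In the long-form part 15 of 20 sites scored at least 0.7, and the 3 sites nearest its end, at 9270624, 9270744 and 9270783, scored 0.911, 0.882 and 0.981.

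Along the 3' UTR, sites and motifs were counted in 13 bins of 500 nt, of which the last had 468 nt. In order from the stop codon the bins held 3, 1, 1, 3, 2, 1, 0, 0, 8, 5, 4, 3 and 0 sites. The DRACH motifs were spread more evenly, with 6 to 12 per bin. The ninth bin had the most sites and 5 of its 10 motifs listed (50%, 23.7 to 76.3), and in the tenth 4 of 7 were listed (57.1%, 25 to 84.2). The 3 bins without a site held 10, 8 and 12 motifs. For these bins counting error allows shares of up to 27.8%, 32.4% and 24.2%.

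The authors kept uniquely mapping reads, so the 3' UTR was also searched for sequence that occurs elsewhere in the genome. Of the 24-nt stretches of the transcript 789 of 9124 (8.65%) occurred more than once in GRCh38. They made up 60.4% of the last bin and 36.6% of the seventh, both without a site, but 0% of the eighth, which also had none. The fifth bin had 38.8% and carried 2 sites. None of the 45 sites (0%) was centred on a repeated 24-nt stretch, whereas 12 of the 108 unlisted DRACH motifs (11.1%) were, all of them in the 3' UTR. Leaving these 12 motifs out can only raise the share listed, as all of them were unlisted. That share was 25.3% over the 99 remaining 3' UTR motifs, beside 22.5% over all 111. A truncated read begins just downstream of the listed nucleotide. A 24-nt stretch centred there is therefore not the sequence that was mapped. The part of mappability in the unlisted motifs was not tested beyond these counts.

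**Figure D3:**
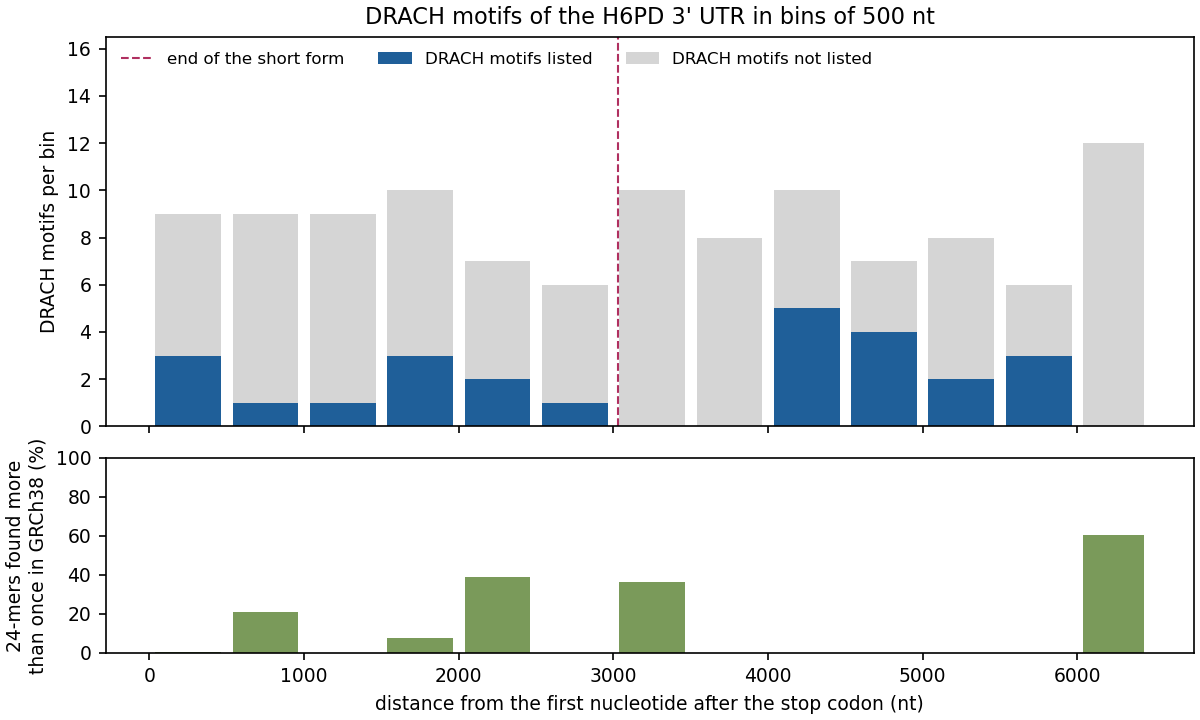
Upper panel, number of DRACH motifs listed (blue) and not listed (grey) in each 500-nt bin of the H6PD 3' UTR (x axis, nt after the stop codon; y axis, motifs per bin), with the end of the short form dashed. Lower panel, percentage of 24-nt stretches of each bin that occur more than once in GRCh38, which is 0 in the eighth bin, 36.6 in the seventh and 60.4 in the last, the 3 bins without a listed motif.

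The longest stretch without a site ran for 1471 nt, from 9267559 to 9269030, across the end of the short form. It held 24 unlisted DRACH motifs, of which 1 was a GGACT, and 12.4% of its 24-nt stretches were repeated. The next ran for 948 nt, from 9265375 to 9266323, with 15 unlisted motifs including 1 GGACT. Both had about as many motifs per kb (16.3 and 15.8) as the transcript as a whole (16.0). The 645-nt gap between 9264202 and 9264847, just before the stop codon, was different, with 3 motifs or 4.66 per kb. The gap across exons 3 and 4 was 557 nt of spliced sequence with 9 unlisted motifs. From the last site to the transcript end there were 554 nt.

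The densest 500 nt, from 9269030 to 9269529, carried 9 sites with scores of 0.644 to 0.90 and had 6 of 9 DRACH motifs listed (66.7%, 35.4 to 87.9). Neighbouring sites lay a median of 88.5 nt apart, from 1 to 1471 nt. Of the 44 neighbouring pairs 15 (34.1%, 21.9 to 48.9) were at most 50 nt apart. The DRACH motifs themselves were closer, with 73 of 145 neighbouring pairs (50.3%) within that distance. They are more numerous on the same transcript, which alone brings neighbours closer, so this comparison does not bear on clustering of the sites. Joining sites at most 50 nt apart gave 19 single sites, 8 pairs, 2 runs of 3 sites and 1 run of 4. In 459 genes with at least 10 sites the median share of pairs within 50 nt was 33.3%, near that of H6PD.

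All runs of at least 3 sites lay in the long-form part of the 3' UTR. Their windows are shown because each run joins DRACH and non-DRACH sites within a span of at most 56 nt.
site 28, first of the first run, non-DRACH, chr1:9269143: cagtgaccGGACGacaaatga
site 30, last of the first run, chr1:9269169: tgcaaatgAGACTccagaggg
site 31, first of the next run, chr1:9269258: cgctggctGAACTgaacgcat
site 32, within the same run, non-DRACH, chr1:9269263: gctgaactGAACGcattccct
site 33, last of that run, non-DRACH, chr1:9269283: tctctccgCAACTctcccgtg
site 35, first of the last run, non-DRACH, chr1:9269797: aggcagcaGGAACcctgggca
site 36, within the last run, chr1:9269798: ggcagcagGAACCctgggcag
site 38, last of the last run, chr1:9269852: tcatccagGAACAgccacaca

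The first run spanned 27 nt (9269143 to 9269169), with scores of 0.794, 0.847 and 0.777 at GGACG and at 2 AGACT pentamers. The next spanned 26 nt (9269258 to 9269283), with 0.90 at GAACT, 0.814 at the GAACG 5 nt farther on and 0.644 at CAACT. The last run spanned 56 nt (9269797 to 9269852) and had 4 sites. Its sites at 9269797 and 9269798 were adjacent nucleotides, with scores of 0.522 at the former, a GGAAC, and 0.866 at the latter, a GAACC. In the whole list 73 pairs of sites were 1 nt apart, and 0.777% of all sites belonged to such a pair.

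Outside DRACH there were 7 sites in H6PD (15.6%, 7.75 to 28.8), beside 11.4% of the exonic sites of all host transcripts. Of these, 6 lay in the long-form part of the 3' UTR, 1 in exon 2, and 0 in the shared part. The remaining 3 that lay outside the runs are shown to complete the set.
GTACT at chr1:9245056, coding, exon 2: gctaagaaGTACTtatggcag
AGACG at chr1:9269999, 3' UTR: gggctttcAGACGcatttcca
CAACT at chr1:9270067, 3' UTR: cctctagcCAACTtttgggag

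The 7 non-DRACH sites scored 0.620 at 9245056, 0.794 at 9269143, 0.814 at 9269263, 0.644 at 9269283, 0.522 at 9269797, 0.686 at 9269999 and 0.764 at 9270067. All but the GGAAC kept the AC of the motif at the site. Of these 6, 3 ended in ACG, 2 were CAACT and 1 was a GTACT. Their median of 0.686 compares with 0.780 for the 38 DRACH sites, and the ranges overlapped. Sequence was an input of the classifier.

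Among DRACH pentamers, those ending in CT carried most sites. In H6PD 23 of 46 motifs ending in CT were listed (50%, 36.1 to 63.9), 9 of 49 ending in CA (18.4%, 9.98 to 31.4) and 6 of 51 ending in CC (11.8%, 5.51 to 23.4). The host transcripts had the same order at lower values, with 15.1%, 4.91% and 3.28%. Median scores in H6PD were 0.847, 0.679 and 0.569 in the same order. GGACT was listed at 7 of 10 positions (70.0%, 39.7 to 89.2; hosts 25.8%) and GAACT at 9 of 13 (69.2%, 42.4 to 87.3; hosts 16.9%). GGACA was listed at 5 of 9, GAACC at 4 of 15, AGACT at 3 of 9, TGACA at 3 of 11 and TAACT at 2 of 3. The other 5 pentamers with a site had a single one listed, among 3 to 9 motifs each. For GAACC the H6PD share was 26.7% (10.9 to 52.0) against 2.47% in the hosts, and for TGACA 27.3% (9.75 to 56.6) against 1.58%. The pentamer AGACA had 0 of 12 motifs listed (hosts 3.25%) and AGACC had 0 of 9 (hosts 2.10%). The other 4 pentamers without a site had 1 to 8 motifs each.

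GGACT, the pentamer with the highest share listed in H6PD and in the hosts, was thus not always listed. Windows of 3 GGACT motifs that were not listed are shown beside 3 listed ones from the same parts of the transcript, so that they can be read together.
not listed, coding, exon 5, chr1:9264028: cgtctgttGGACTttgagttc
not listed, 3' UTR, shared part, chr1:9266010: atctcaggGGACTcccggatg
not listed, 3' UTR, long-form part, chr1:9268565: gaatcaagGGACTttaagcta
listed, coding, exon 5, chr1:9264847: tggtacatGGACTacgacgcc
listed, 3' UTR, shared part, chr1:9266684: ttctctctGGACTgtttacac
listed, 3' UTR, long-form part, chr1:9270744: cgcgctagGGACTcagggtct

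The listed ones scored 0.730 at 9264847, 0.895 at 9266684 and 0.882 at 9270744. All 3 unlisted GGACT motifs were over 500 nt from a junction, and each occurred once in the genome as a 24-nt stretch. Of the 4 unlisted GAACT motifs, those at 9268857 and 9270683 were also single-copy, whereas the 24-nt stretches at 9267042 and 9271156 occurred 3229 and 52015 times. The 16 flanking bases had a median GC content of 56.2% (quartiles 50 and 62.5) at the 45 sites and 50% (42.2 and 62.5) at the 108 unlisted DRACH motifs, and T made up 22.6% and 27.1% of them. The quartiles of GC content overlapped. The sets were not matched for motif or region, as 7 of the 45 sites were outside DRACH and 14 were coding. The coding sequence had 62.3% GC and the 3' UTR 53.4%, and the part of region in this difference was not tested.

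Among all host genes H6PD had the second highest number of exonic sites, after PLEC (plectin, a cytoskeletal linker) with 48 and before NDST1 (a heparan sulfate sulfotransferase) with 42. The median host gene had 3. HELZ2 (a helicase and nuclear receptor coactivator) had 31, and FAM20C (a kinase of the secretory pathway) had 32 in its interval, of which 18 were exonic in the chosen transcript. In PLEC 43 of 48 sites and in HELZ2 28 of 31 were coding. No host had more 3' UTR sites than the 31 of H6PD, a number that NDST1 shared. Of 452 genes with at least 100 DRACH motifs, the share listed was higher only in NDST1 (26.6%, 19.97 to 34.5), an interval that covers most of that of H6PD, and the median was 2.93%. The 3' UTR of H6PD was longer than the median of 939 nt, and 65 of 3616 coding hosts had a longer one. In the 136 hosts with a 3' UTR of at least 5000 nt the median was 3 sites and 2.07% of motifs listed, and H6PD had the highest value of both.

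Other measures were compared over genes with at least 10 sites. In 459 genes with at least 10 sites the median of the gene medians of the score was 0.754, and 202 genes were above the 0.765 of H6PD. Sites per kb of transcript were 4.92 in H6PD, with a median of 3.16, an upper quartile of 4.51 and 87 genes above. The share of sites in the 3' UTR, 68.9% in H6PD, had a median of 58.3% over 455 coding genes, of which 186 were above.

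Layouts were compared over the shares of sites in the 5' UTR, the coding sequence, the first 1000 nt of the 3' UTR and the rest, by Euclidean distance in percentage points, among 38 genes with at least 20 exonic sites. In H6PD these shares were 0%, 31.1%, 8.89% and 60%. The nearest layout was that of TBC1D16 (a Rab GTPase-activating protein), at a distance of 28.7, with 25 sites and 52.0% of them beyond the first 1000 nt of the 3' UTR. NDST1 followed at 31.3, with 42.9% there and 30.95% in the first 1000 nt. LRRC14 (a leucine-rich repeat protein) came next at 32.2, with 51.6% coding and 35.5% far in the 3' UTR. Its share of motifs listed was above that of H6PD, with 24 of 55 (43.6%, 31.4 to 56.7), but it has too few motifs for the ranking above. All 3 had a larger share than H6PD in the first 1000 nt of the 3' UTR.

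Other genes of the pentose phosphate pathway and the partners of H6PD in the endoplasmic reticulum are given beside it. Of 8 genes 5 had at least 1 site, 18 sites in all, with 17 of 287 DRACH motifs listed (5.92%). The 7.29% of all host transcripts leaves out genes without a site. The 287 motifs include those of RPE, RPIA and HSD11B1, which had 0 sites, so the shares are not on like terms. Among the oxidative enzymes, PGLS, the lactonase, had 3 sites (3 of 15 motifs) and PGD, the phosphogluconate dehydrogenase, had 6 (6 of 49, 12.2%, 5.73 to 24.2). Of the enzymes that interconvert sugars, TKT (transketolase) had 5 sites and TALDO1 (transaldolase) 2, while RPE (the epimerase) and RPIA (the isomerase) had 0 with 59 and 28 motifs. SLC37A4, the carrier that brings glucose 6-phosphate into the endoplasmic reticulum, had 2 sites, both in its 5' UTR. HSD11B1 had 0 sites on 26 motifs. The list does not tell an unmodified gene from one that is not expressed.

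**Figure D4:**
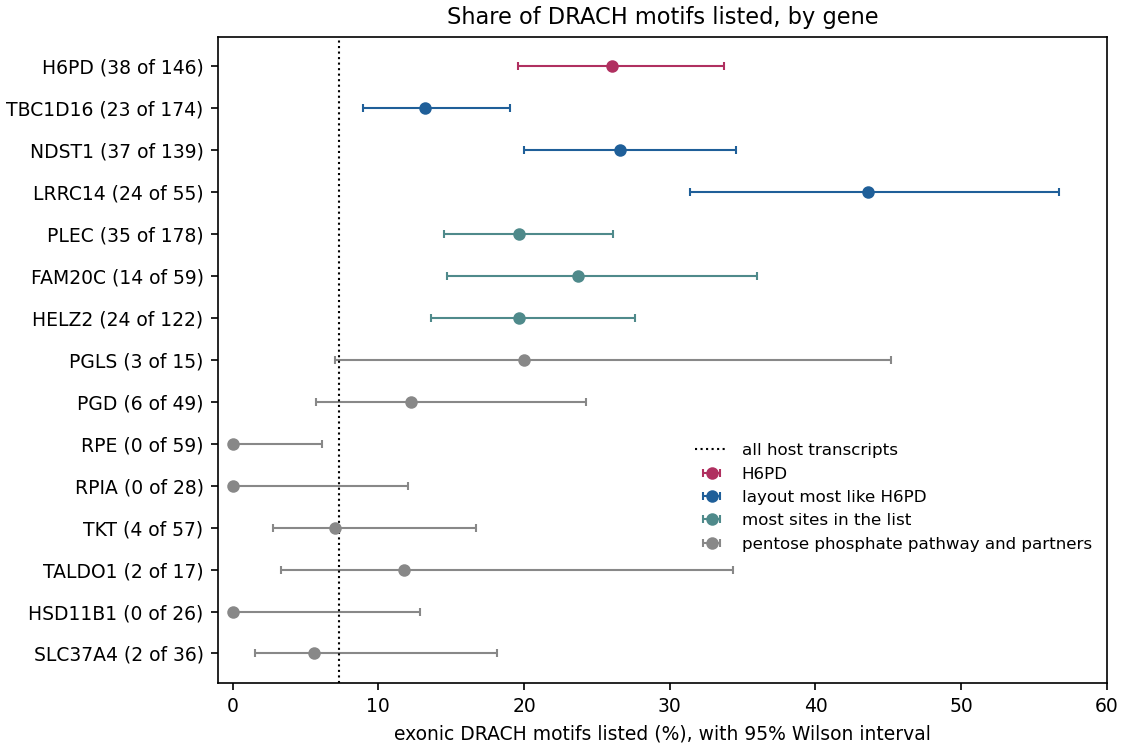
Percentage of exonic DRACH motifs listed (x axis) for H6PD, genes of like layout, genes with the most sites and the pentose phosphate genes and partners (y axis, with motifs listed and in all), with 95% Wilson intervals for counting error and a dotted line at the 7.29% of all host transcripts. Host transcripts all carry a listed site, unlike RPE, RPIA and HSD11B1. H6PD at 26% and NDST1 at 26.6% nearly coincide, LRRC14 lies above them at 43.6%, PGD lies at 12.2%, and RPE, RPIA and HSD11B1 are at 0.

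Defining genes of thyroid follicular cells (TG, TSHR, SLC5A5, PAX8, NKX2-1 and FOXE1) had no listed site in 6 of 6 cases, with 510 DRACH motifs. Of 19183 coding genes with a supported transcript, 81.2% had no exonic site either. As sites and not expression were given, the labelled origin of the line could not be checked from them.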

How the data were processed

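Polyadenylated RNA of untreated C643 cells was profiled by miCLIP2. The authors mapped reads to GRCh38 with STAR 2.7.3a, kept unique alignments, removed duplicates by molecular identifiers with UMI-tools 1.0.0, called peaks per replicate with PureCLIP and retained those present in more than a single replicate. The deposited list holds 1-nt sites that m6Aboost called modified, pooled over replicates, and each score is a fraction from 0 to 1. The model used the 21 nt around a site, its transcript region, C-to-T transitions and the signal relative to the other peaks of the transcript. Because of this scaling within transcripts, and since peaks need reads, scores and numbers of sites are not levels of methylation. The list itself holds no read totals per library or per site, and library totals were not used here.

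Positions are 1-based. Genes came from GENCODE release 44, a later release than that of the authors, on the same assembly. Each gene was represented by its longest transcript after splicing among those with a support level up to 2 and a transcript support level up to 3 (or none). Genes without one entered no host count, and for SLC37A4 the canonical transcript was taken. DRACH motifs were searched on the spliced transcript, and copies of 24-nt stretches on both strands of 25 chromosomes. Shares have 95% Wilson intervals. No test between samples was possible with 1 group.

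The members and gene lists were chosen with earlier results of these data known. Named genes were the pentose phosphate genes and partners of H6PD, the other 4 of the 5 genes with the most sites, the 3 nearest layouts and markers of thyroid follicular cells. Certain further genes of these lists are not reported here. Named sites were the 3 highest and 3 lowest scores, all non-DRACH sites, and the ends of runs of at least 3 sites. The unlisted GGACT and GAACT motifs, the listed GGACT motifs beside them and the further scores along the exons were named after their values were seen. Alternatives changed the score threshold, motif, transcript, distances and isoform. Counting was tested on simulated data. Tables were made with pandas 2.3.3, numba 0.67.0, numpy 2.4.6 and scipy 1.17.1 in Python 3.11.15, and figures with matplotlib 3.10.9.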

Additional observations from a re-analysis of the deposited data

How the results depend on the processing

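Of 27 alternatives to 7 results, 21 planned and 6 chosen after seeing the data, 21 left a share or median within its interval, or a count within 1.5 times, and 6 did not. At a score of at least 0.7, H6PD had 29 sites, 17.8% of exonic and 20.6% of coding DRACH motifs listed. With RAC in place of DRACH the coding share was 23.2%. Counting only exons of the short form H6PD-203, an alternative chosen after seeing the data, left 25 sites, with 44% of them in the 3' UTR. No paired analysis was possible because all libraries belong to 1 group, and no replicate could be left out because the list pools them. Depth per site is unknown, so an unlisted motif is no evidence of an unmodified adenosine, and the isoform that a 3' UTR site came from was not measured.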
